A study of Mus musculus with 12 samples.

Results

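The 10 nuclear genes Tfam, Tfb2m, Nrf1, Polg, Polg2, Opa1, Mfn1, Mfn2, Dnm1l and Fis1, which keep mitochondrial DNA and shape the mitochondrial network, were followed in Senp1 WT and Senp1 CKO CD8+ T cells, at rest and after activation. They were taken from the count table by gene symbol: all 10 were found among its 56691 gene identifiers, of which 30285 had at least 1 count, and all 10 were among the 15935 genes tested. The study sequenced polyadenylated RNA of naive CD8+ T cells from mouse spleen. There were 4 groups with 3 libraries each: Senp1 WT and Senp1 CKO cells at 0 h without stimulation, and cells of both genotypes after 48 h of anti-CD3 at 5 µg/ml plus anti-CD28 at 1 µg/ml, which stand in for antigen and costimulation. The Senp1 product is a SUMO protease, an enzyme that takes the modifier SUMO off its target proteins, and CKO is the label given to its conditional knockout. The labels used here name neither the Cre driver, nor the deleted exons, nor the strain or age of the mice, nor whether libraries of a group came from separate mice. The p-values therefore measure the spread between these libraries, which may be technical.

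Mitochondrial DNA is a small circular genome that is packed by TFAM, transcribed by a polymerase with TFAM and TFB2M at the promoter, and copied by DNA polymerase gamma, a catalytic subunit (POLG) with an accessory subunit (POLG2) that makes it processive. NRF1 is a transcription factor of the nucleus that acts on many nuclear genes for mitochondrial proteins. The network itself is joined by fusion (MFN1 and MFN2 in the outer membrane, OPA1 in the inner) and cut by fission (the GTPase DRP1, encoded by Dnm1l, and the outer membrane protein FIS1). In CD8+ T cells, activation is known for growth of mitochondrial mass and for a shift of the network toward separate mitochondria.

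Library totals ran from 15900529 to 22427151 counts. The 10 genes had between 141 and 3330 counts in every library. Polg2 at 48 h had the fewest, 141 to 223 in WT and 149 to 193 in CKO libraries, so its relative counting error was the largest. Senp1 itself was lower in CKO libraries. It measured 82.4 ± 3.99 CPM in WT and 57.0 ± 2.64 in CKO at 0 h, and 162 ± 10.5 and 70.3 ± 4.13 at 48 h (mean ± SD, n = 3). CPM are counts divided by the library's total over tested genes times its scaling factor (TMM, from edgeR), and scaled to 1e+06. By edgeR's quasi-likelihood test CKO held 69.1% of the WT level at 0 h (adjusted p = 6.26e-05) and 43.5% at 48 h (adjusted p = 5.43e-10). Gene counts over all exons do not show which exons were lost. All 7 CD8 T-cell markers were present in every group, with summed levels of 3552 to 3756 CPM in WT and 3474 to 3628 in CKO at 0 h. At 48 h they were 1889 to 1993 CPM in WT and 1560 to 1608 in CKO, without overlap, and 3 of the 7 (Cd8a, Cd8b1 and Cd2) were called lower in CKO. Over time 6 of the 7 were called lower in WT and 7 in CKO, beside 39.1% and 39.2% of all genes. Summed levels of B-cell, myeloid and erythroid markers did not overlap between the times. Those of natural killer cell markers were apart in WT and overlapped in CKO, and those of CD4 T-cell markers overlapped in both genotypes. The 7 B-cell markers summed to 286 to 562 CPM in WT and 197 to 248 in CKO at 0 h, and to 31.1 to 63.3 in both genotypes at 48 h. The 7 myeloid markers summed to 46.7 to 85.9 CPM at 0 h and 1.89 to 7.96 at 48 h, where Fcgr1 was at 0. The 6 erythroid markers summed to 19.8 to 35.5 CPM in WT and 10.6 to 18.8 in CKO at 0 h. At 48 h they summed to under 1 CPM, where Hbb-bs and Hbb-bt were at 0. The B-cell and erythroid sums at 0 h thus did not overlap between genotypes, while those of the other marker lists did. No tested B-cell or erythroid marker was called between genotypes at 0 h. The 5 natural killer cell markers summed to 151 to 194 CPM in WT and 148 to 247 in CKO at 0 h, and to 250 to 284 and 166 to 211 at 48 h. Of these 5, Eomes, which activated CD8+ T cells also express, was called higher with time in both genotypes. The other 4 were called lower, Ncr1 going from 17.1 to 0.712 CPM in WT and from 20.9 to 1.23 in CKO on average. None of the 5 was called between genotypes at 48 h. The 3 CD4 T-cell markers summed to 50.6 to 88.9 CPM over all groups. The part of these cells in the changes below was not tested. In bulk RNA, fewer cells of a type and less RNA per cell cannot be told apart.

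A pair of short letter patterns known from promoters of nuclear genes for mitochondrial proteins occur near the starts of 6 of the 10 genes. Their relation to the changes below was not tested. They are the NRF1 core (GCATGCGC) and the core bound by ETS factors such as GABP (CCGGAAGT), searched on both strands in the 300 bases from 250 before to 50 after each RefSeq transcription start (build GRCm38.p6). Positions count from the start as base 1, with no base 0. Each line gives 30 bases, 5′ to 3′ on the gene's strand, with the matched letters in capitals. In Opa1 the NRF1 core matches both strands in an overlap, first at -59 and again at -57.
Opa1 at chr16:29579265-29579294 (+ strand): gtggctccccGCGCATGCGCatgtcatccg
Tfb2m at chr1:179546245-179546274 (- strand): ctaggtcgttcGCATGCGCcattcgtaatg
Tfam at chr10:71238073-71238102 (- strand): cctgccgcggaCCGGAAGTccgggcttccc
Polg at chr7:79466293-79466322 (- strand): gaggacctcacCCGGAAGTccctctgcacc
Mfn1 at chr3:32529427-32529456 (+ strand): gatccgaagcgCCGGAAGTagccgccccta
Fis1 at chr5:136953246-136953275 (+ strand): ggaggcaccacCCGGAAGTtcaggcttccc
The NRF1 core lay past the start in Tfb2m (position 14). The ETS core lay at -47 in Tfam, -38 in Polg, -44 in Mfn1 and -18 in Fis1, and a second annotated start of Fis1 held it too, at 20. The NRF1 core was in 2.71% of all 32851 windows of this length and in 5.00% of the 13193 windows of tested genes. For the ETS core the shares were 3.89% and 7.95%. The 10 genes have 15 windows in all, of which 2 held the NRF1 core and 5 the ETS core. The GC box (GGGCGG) was in 11 of the 15, near 9 of the 10 genes, beside 60.0% of the windows of tested genes. The YY1 core (ATGGCGG) was in 1 of the 15, that of Nrf1, beside 7.69%. An E-box (CACGTG, 9.80% of those windows) and a cyclic AMP response element (TGACGTCA, 2.94%) matched near none of them. Polg2 held none of the 6 patterns in its 1 window. A match is a run of letters and does not show binding, and the patterns were picked after the windows had been seen.

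After 48 h of stimulation most of the 10 genes rose modestly. Polg2 fell steeply and Tfb2m less so in both genotypes, Polg was called lower in WT only, and Fis1 was not called. Rises and falls here are relative to the counts of each library after scaling. No value here gives the RNA per cell, so changes per cell cannot be read. In WT cells 6 rose, 3 fell and 1 did not pass the test; in CKO cells 6 rose, 2 fell and 2 did not pass. Among all tested genes 38.7% were called higher and 39.1% lower in WT, and 38.5% and 39.2% in CKO, so a call is common in this comparison. The median log2 change of the 10 was 0.307 in WT and 0.328 in CKO, against -0.033 and -0.044 over all genes. The median size of change, whatever its sign, was smaller among the 10 (0.44 in WT, 0.56 in CKO) than among all genes (0.98 in both). The 10 had at least 141 counts in every library, while all genes include some with few counts. No set of genes at like counts was compared. Changes below are log2(48 h / 0 h) ± SE from edgeR's quasi-likelihood fit, with p adjusted by Benjamini-Hochberg over all 15935 genes.

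**Figure D1:**
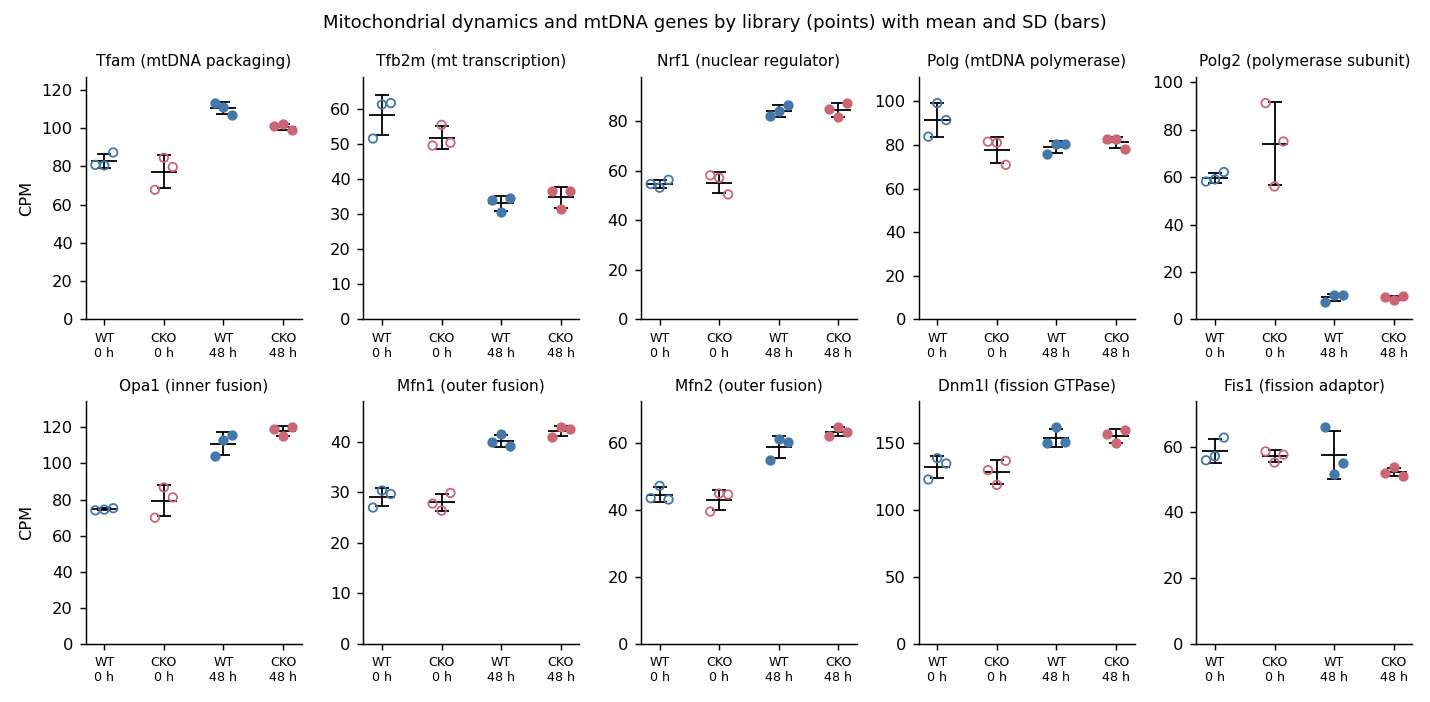
CPM of the 10 genes in each library (points, 3 per group; open at 0 h, filled at 48 h; blue WT, red CKO), with the mean and SD of each group as bars, on linear axes from 0. Polg2 falls from 56.1 CPM or more to 10.3 or less, while Opa1, Nrf1, Mfn1 and Mfn2 lie higher at 48 h in every library.

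Tfam, the packing protein and transcription activator of mitochondrial DNA, rose. Tfam measured 80.7, 80.4 and 87.2 CPM in the 3 WT libraries at 0 h and 113, 111 and 107 CPM in those at 48 h. The CKO values were 67.7, 84.4 and 79.6 CPM at 0 h and 101, 102 and 98.7 CPM at 48 h. All 6 libraries at 48 h lay above all 6 at 0 h. The log2 change was 0.41 ± 0.072 in WT (adjusted p = 3.46e-05) and 0.38 ± 0.072 in CKO (adjusted p = 9.90e-05). Tfb2m, whose protein opens the promoter for the mitochondrial RNA polymerase, went the other way. Tfb2m measured 51.5, 61.2 and 61.6 CPM in the 3 WT libraries at 0 h and 33.9, 30.5 and 34.7 CPM in those at 48 h. Its level in CKO cells was 49.5, 55.4 and 50.3 CPM at rest and 36.5, 31.4 and 36.5 CPM after stimulation. No library at 48 h reached the lowest at 0 h. Tfb2m fell by 0.81 ± 0.088 on the log2 scale in WT (adjusted p = 6.80e-08) and by 0.57 ± 0.089 in CKO (adjusted p = 8.95e-06).

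Nrf1, the nuclear regulator, rose to nearly the same degree in both genotypes. Nrf1 measured 54.7, 53.2 and 56.4 CPM in the 3 WT libraries at 0 h and 82.0, 84.1 and 86.6 CPM in those at 48 h. CKO cells gave 58.2, 57.2 and 50.5 CPM at 0 h and 84.9, 81.6 and 87.4 CPM at 48 h. The times did not overlap in either genotype. The change was 0.62 ± 0.067 in WT (adjusted p = 6.30e-08) and 0.61 ± 0.067 in CKO (adjusted p = 8.00e-08).

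The subunits of the mitochondrial DNA polymerase diverged. Polg2, the accessory subunit, showed the steepest change of the 10. Polg2 measured 58.2, 59.1 and 62.2 CPM in the 3 WT libraries at 0 h and 7.33, 10.3 and 10.1 CPM in those at 48 h. At 0 h the CKO libraries had 91.3, 56.1 and 75.1 CPM, and at 48 h they had 9.58, 8.18 and 9.76. WT libraries at 48 h had 15.5% of the 0 h level, a 6.46-fold drop (log2 change -2.69 ± 0.169, adjusted p = 4.01e-09), and CKO libraries 12.4%, an 8.07-fold drop (-3.01 ± 0.171, adjusted p = 1.30e-09). In CKO cells at 0 h replicate 1 was high and replicate 2 lay below the WT libraries. Polg, the catalytic subunit, moved little. Polg measured 83.8, 99.2 and 91.4 CPM in the 3 WT libraries at 0 h and 75.8, 80.4 and 80.5 CPM in those at 48 h. The 0 h CKO libraries were at 81.5, 81.0 and 70.9 CPM and the 48 h ones at 82.6, 82.8 and 78.2 CPM. Its WT decline of -0.21 ± 0.072 passed the test (adjusted p = 0.0116), while the CKO value of 0.06 ± 0.073 did not (adjusted p = 0.448). The WT call for Polg rests on few libraries: without WT replicate 2 at 0 h it was -0.15 (adjusted p = 0.0953), and without WT replicate 1 at 48 h it was -0.16 (adjusted p = 0.0549). The ratio of Polg to Polg2 counts was 1.44 to 1.68 in WT and 0.892 to 1.44 in CKO libraries at 0 h, and 7.84 to 10.3 and 8.01 to 10.1 at 48 h. Lengths differ between the 2 genes, so only the shift of this ratio between groups can be read, and no test was run on it.

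Polg shares 921 exon bases, 8.57% of its exon bases in GENCODE M21, with Fanci on the other strand, and whether the authors' counting used strand is not given in the sources used here. Fanci, a DNA crosslink repair gene, went from 7.55 ± 1.23 to 53.0 ± 7.20 CPM in WT (log2 change 2.81) and from 5.47 ± 0.900 to 50.4 ± 0.469 in CKO (3.20; n = 3 each). Polg2 shares 132 bases with Milr1 (8.19 ± 0.743 CPM in WT at 0 h, with log2 changes of 0.30 in WT and 0.08 in CKO), and Dnm1l 243 bases with Gm49521, whose group means stayed below 0.2 CPM. The part of these partners in the values of Polg, Polg2 and Dnm1l was not tested.

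The fusion genes all rose. Opa1 fuses the inner membrane and shapes cristae. Opa1 measured 74.0, 74.4 and 75.2 CPM in the 3 WT libraries at 0 h and 104, 113 and 116 CPM in those at 48 h. Its CKO libraries measured 69.9, 86.7 and 81.2 CPM at 0 h and 119, 115 and 120 CPM at 48 h. All 48 h values lay above all 0 h values. The change was 0.58 ± 0.072 in WT (adjusted p = 4.39e-07) and 0.57 ± 0.072 in CKO (adjusted p = 4.89e-07). Mfn1 and Mfn2 are the GTPases that tether and fuse outer membranes. Mfn1 measured 27.0, 30.4 and 29.7 CPM in the 3 WT libraries at 0 h and 40.0, 41.6 and 39.2 CPM in those at 48 h. CKO libraries had 27.8, 26.4 and 29.9 CPM before and 41.1, 42.9 and 42.5 CPM after. Mfn1 thus moved by 0.47 ± 0.078 in WT (adjusted p = 1.85e-05) and 0.59 ± 0.079 in CKO (adjusted p = 1.21e-06), with no overlap between times. Mfn2 measured 43.6, 47.3 and 43.2 CPM in the 3 WT libraries at 0 h and 55.0, 61.2 and 60.4 CPM in those at 48 h. Its CKO libraries had 39.6, 45.0 and 44.7 CPM at 0 h and 62.2, 64.8 and 63.5 CPM at 48 h. Mfn2 rose by 0.40 ± 0.073 in WT (adjusted p = 6.58e-05) and 0.56 ± 0.074 in CKO (adjusted p = 1.05e-06), again without overlap. The mean log2 ratio of Mfn2 to Mfn1 counts stayed between 0.55 and 0.62 in the 4 groups.

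The fission genes moved little. Dnm1l encodes DRP1, the GTPase that constricts the outer membrane. Dnm1l measured 123, 139 and 135 CPM in the 3 WT libraries at 0 h and 150, 162 and 151 CPM in those at 48 h. Among CKO libraries it was 130, 119 and 137 CPM at 0 h and 157, 150 and 160 CPM at 48 h. In each genotype the 48 h values lay above the 0 h values. The change was 0.22 ± 0.066 in WT (adjusted p = 0.00520) and 0.28 ± 0.066 in CKO (adjusted p = 0.000807). With genes filtered at 50 counts in 3 libraries the WT value was 0.11 (adjusted p = 0.135), a setting that shifted the median of all genes by -0.112. Fis1 is a tail-anchored outer membrane protein linked to fission. Fis1 measured 55.9, 57.1 and 62.8 CPM in the 3 WT libraries at 0 h and 65.9, 51.8 and 55.0 CPM in those at 48 h. In the CKO group it was 58.6, 55.2 and 57.6 CPM at 0 h and 52.0, 53.7 and 51.2 CPM at 48 h. The WT libraries of both times overlapped, with replicate 1 highest at 48 h, and the change was -0.03 ± 0.082 (95% interval -0.20 to 0.15, adjusted p = 0.783). In CKO it was -0.13 ± 0.082 (95% interval -0.30 to 0.05, adjusted p = 0.166). This CKO value passed the threshold under that stricter filter (-0.24, adjusted p = 0.0130) and when only the CKO libraries were fitted (-0.16, adjusted p = 0.0304). The mean log2 CPM of Opa1, Mfn1 and Mfn2 less that of Dnm1l and Fis1 was -0.94 ± 0.055 in WT and -0.91 ± 0.123 in CKO at 0 h, and -0.55 ± 0.127 and -0.41 ± 0.020 at 48 h (SD, n = 3, no test).

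**Figure D2:**
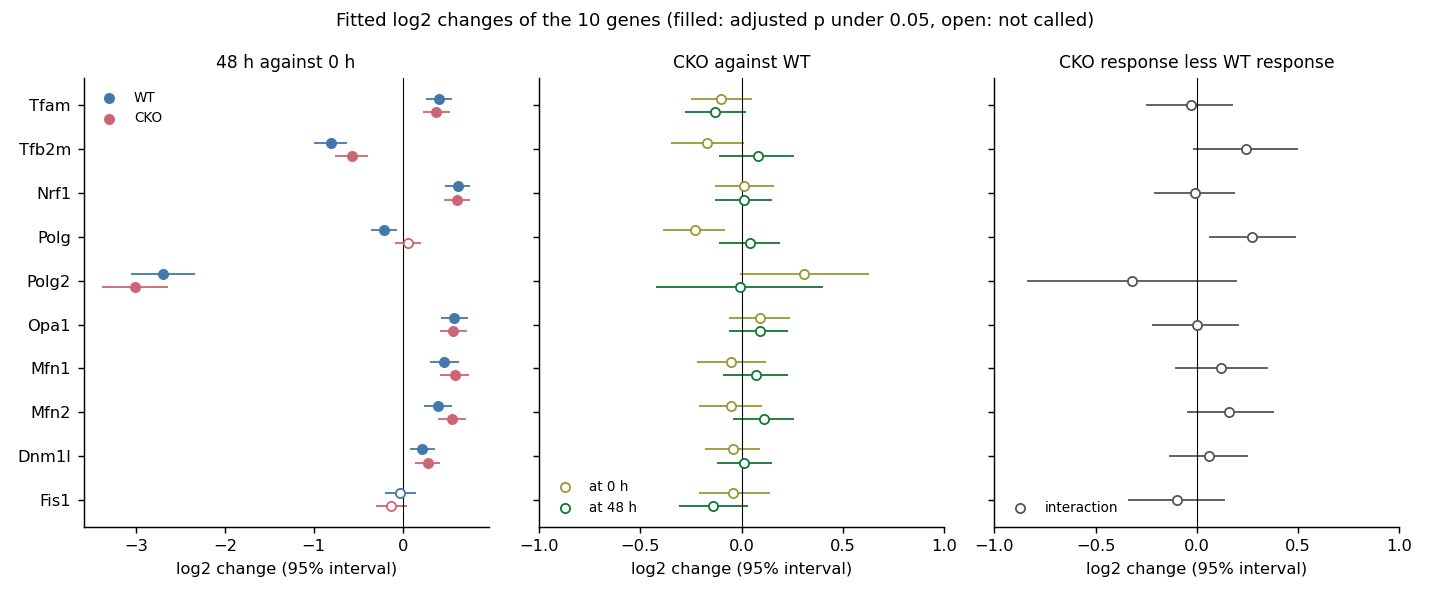
Fitted log2 changes with 95% intervals (lines) for the 10 genes: 48 h against 0 h in WT and CKO, CKO against WT at each time, and the CKO response less the WT response. Filled points passed an adjusted p of 0.05; no point in the genotype and interaction panels is filled.

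None of the 10 genes was called between genotypes by edgeR's quasi-likelihood test, at 0 h, at 48 h or in the interaction, which asks whether the CKO response differed from the WT response. Among all genes 7.48% were called at 0 h, 4.54% at 48 h and 1.38% in the interaction. At an unadjusted p under 0.05 there was 1 of the 10 at 0 h, 0 at 48 h and 1 in the interaction, Polg in both cases. Over all genes that threshold was passed by 21.1%, 16.7% and 12.8%. DESeq2 called 1 at 0 h (Polg, adjusted p = 0.0417), 0 at 48 h and 0 in the interaction. A p above the threshold does not show that the genotypes were alike, so intervals are given.

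Polg came nearest. At 0 h it measured 91.5 ± 7.67 CPM in WT and 77.8 ± 5.99 in CKO (SD, n = 3), and no CKO library reached the lowest WT library. The log2 difference was -0.23 ± 0.073 (95% interval -0.39 to -0.08, adjusted p = 0.0575). This difference passed the threshold in 6 of 20 alternatives, among them the fits without WT replicate 1 at 0 h (adjusted p = 0.0249) and without WT replicate 1 at 48 h (adjusted p = 0.0392), with a range of adjusted p from 0.0120 to 0.262. At 48 h it was 0.04 (interval -0.11 to 0.19). The difference between the responses was 0.27 ± 0.103 (interval 0.06 to 0.49, adjusted p = 0.234), so the fall called in WT and not in CKO was not shown to differ between them. The WT 0 h libraries enter the genotype difference at 0 h, the WT response and the interaction alike. Polg2 was 59.9 ± 2.12 CPM in WT and 74.2 ± 17.6 in CKO at 0 h, a difference of 0.31 ± 0.147 (interval -0.01 to 0.63, adjusted p = 0.252). Single libraries moved this value: without CKO replicate 2 at 0 h it was 0.47 (adjusted p = 0.0152), and without CKO replicate 1 at 0 h it was 0.13 (adjusted p = 0.667). Tfam at 48 h was 110 ± 3.22 in WT and 100 ± 1.55 in CKO, without overlap, a difference of -0.13 ± 0.071 (interval -0.28 to 0.02, adjusted p = 0.369). Mfn2 at 48 h was 58.8 ± 3.37 and 63.5 ± 1.29, also without overlap, a difference of 0.11 ± 0.072 (interval -0.04 to 0.26, adjusted p = 0.491). Tfb2m differed by -0.17 at 0 h (interval -0.35 to 0.01), and its responses by 0.24 (interval -0.02 to 0.50, adjusted p = 0.440). For Nrf1 the intervals were -0.13 to 0.16 at 0 h and -0.13 to 0.15 at 48 h. For Opa1 they were -0.06 to 0.24 and -0.06 to 0.23, and for Mfn1 -0.22 to 0.12 and -0.09 to 0.23. For Dnm1l they were -0.18 to 0.09 and -0.12 to 0.15, and for Fis1 -0.21 to 0.14 and -0.31 to 0.03.

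Levels can be compared between genes only per length, here as CPM per kb of exon in GENCODE M21. In WT at 0 h Fis1 led with 34.2 ± 2.14, followed by Dnm1l (25.4 ± 1.60), Tfb2m (20.7 ± 2.03) and Tfam (18.7 ± 0.867), of which the last 2 overlapped. Polg2 (13.7 ± 0.486), Opa1 (9.46 ± 0.0720), Mfn2 (8.61 ± 0.436) and Polg (8.51 ± 0.714) came next, with Mfn2 and Polg overlapping, then Nrf1 (5.33 ± 0.154) and Mfn1 (4.75 ± 0.299). In CKO at 0 h the order of the means was the same. Tfb2m (17.7 to 19.8), Tfam (15.2 to 19.0) and Polg2 (12.9 to 21.0) all overlapped there, so their order was not resolved. At 48 h Fis1 and Dnm1l overlapped at the top in both genotypes. In WT they were at 33.6 ± 4.31 and 29.6 ± 1.25, and in CKO at 30.5 ± 0.752 and 29.9 ± 1.02. Tfam followed at 24.8 ± 0.726 in WT and 22.6 ± 0.350 in CKO, then Opa1 at 13.2 to 14.7 in WT and 14.7 to 15.3 in CKO libraries. Tfb2m and Mfn2 overlapped after it in both genotypes (11.8 ± 0.805 and 11.3 ± 0.649 in WT), above Nrf1, Polg and Mfn1. Polg2 had dropped to the last place, at 2.12 ± 0.380 in WT and 2.11 ± 0.199 in CKO. The order depends on the length used. With the longest coding transcript Polg2 stood at rank 2 rather than 5 in WT at 0 h, and Nrf1 at rank 6 rather than 9. At 48 h Nrf1 stood at rank 4 rather than 7 in both genotypes, above Opa1, Mfn2 and Tfb2m. Polg2 was last at 48 h by both lengths.

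Around the polymerase subunits, other genes for replication and repair of mitochondrial DNA mostly rose: of 14 tested, 12 were called higher and 0 lower in WT, and 13 and 0 in CKO. Of all tested genes, 38.7% were called higher and 39.1% lower in WT, and 38.5% and 39.2% in CKO. The list's median log2 change was 1.053 in WT and 0.986 in CKO. Dna2, a nuclease and helicase also used in the nucleus, went from 2.25 ± 0.266 to 46.3 ± 4.31 CPM in WT (log2 change 4.36 ± 0.137, adjusted p = 3.08e-16) and from 1.63 ± 0.454 to 47.4 ± 1.84 in CKO (4.86 ± 0.146, adjusted p = 1.78e-16). Mgme1, a mitochondrial exonuclease for single-stranded DNA, rose by 2.23 ± 0.128 in WT (adjusted p = 3.60e-12) and 1.65 ± 0.124 in CKO (adjusted p = 2.51e-10). Apex1, an endonuclease of base excision repair in nucleus and mitochondria, rose by 1.73 ± 0.094 and 1.56 ± 0.095 (adjusted p = 1.70e-12 and 8.91e-12). The steep fall of Polg2 thus stood beside a list with no member called lower.

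Of 9 other genes of mitochondrial transcription and RNA handling, 6 rose, 1 fell and 2 did not pass in WT. In CKO the counts were 7, 1 and 1, and the medians were 0.886 in WT and 0.867 in CKO. Shares over all genes were 38.7% higher and 39.1% lower in WT, and 38.5% and 39.2% in CKO. Tfb1m, the paralog of Tfb2m that methylates mitochondrial ribosomal RNA, moved opposite to Tfb2m. Tfb1m measured 4.52, 5.11 and 5.95 CPM in the 3 WT libraries at 0 h and 18.3, 17.7 and 15.5 CPM in those at 48 h. Resting CKO libraries had 3.50, 3.39 and 3.11 CPM and stimulated ones 12.4, 11.7 and 12.9 CPM. Its change was 1.73 ± 0.142 in WT (adjusted p = 1.11e-09) and 1.89 ± 0.153 in CKO (adjusted p = 8.11e-10). The ratio of Tfb1m to Tfb2m counts, looked at after these values were seen, went from 0.0835 to 0.0965 in WT at 0 h to 0.447 to 0.580 at 48 h, and in CKO from 0.0612 to 0.0707 up to 0.339 to 0.373. Lrpprc and Slirp, partners that stabilise mitochondrial mRNAs, rose by 0.92 ± 0.066 and 1.55 ± 0.159 in WT (adjusted p = 1.44e-10 and 2.94e-08). In CKO they rose by 0.87 ± 0.066 and 1.91 ± 0.166 (adjusted p = 3.58e-10 and 2.42e-09).

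Genes that supply nucleotides for mitochondrial DNA went both ways. Of 8 genes, WT cells had 3 called higher and 3 lower, and CKO cells 1 higher and 3 lower. In WT these counts were near the shares over all genes, 38.7% higher and 39.1% lower. In CKO those shares were 38.5% and 39.2%. Tk2, the mitochondrial thymidine kinase of the salvage pathway, fell from 60.3 ± 2.51 to 20.9 ± 0.118 CPM in WT and from 58.0 ± 1.76 to 16.6 ± 0.247 in CKO (log2 changes -1.53 ± 0.071 and -1.80 ± 0.073, adjusted p = 1.29e-13 and 1.60e-14). Slc25a33, a pyrimidine nucleotide carrier of the inner membrane, rose by 1.48 ± 0.136 and 1.53 ± 0.139 (adjusted p = 5.87e-09 and 4.76e-09). Among 8 tested regulators of mitochondrial biogenesis beside Nrf1, the WT response called 3 higher and 3 lower, and that of CKO cells 4 higher and 3 lower. The WT counts were again near the shares over all genes. Ppargc1b, a coactivator of mitochondrial genes, fell from 15.9 ± 0.666 to 6.14 ± 0.562 CPM in WT (-1.38 ± 0.136, adjusted p = 1.80e-08) and by 1.70 ± 0.140 on the log2 scale in CKO (adjusted p = 1.16e-09). Perm1, another coactivator, fell from 7.67 ± 0.208 to 1.18 ± 0.169 CPM in WT (-2.70 ± 0.287, adjusted p = 4.97e-08). Pprc1, of the same coactivator family as Ppargc1b, rose by 0.59 ± 0.080 in WT cells and 0.89 ± 0.081 in CKO cells, with adjusted p = 1.42e-06 and 4.87e-09. Ppargc1a had too few counts to be tested, 37 over the 12 libraries.

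**Figure D3:**
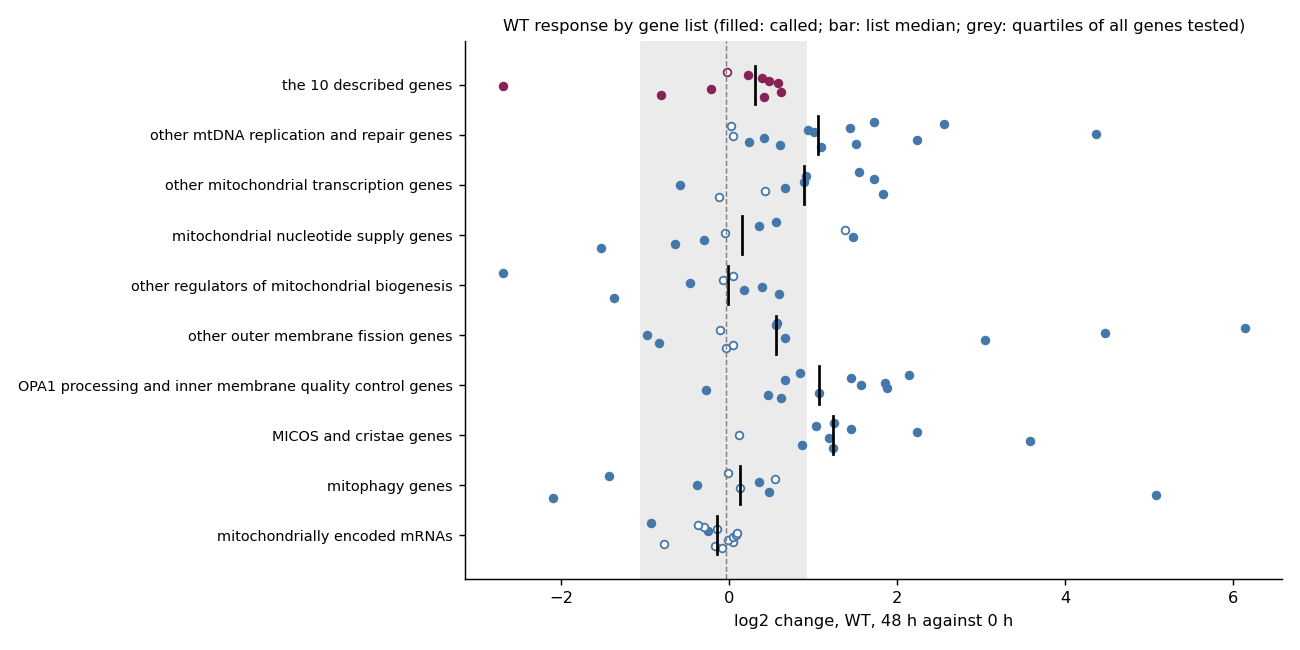
Log2 change in WT (48 h against 0 h) of each tested gene, by list: filled points were called, black bars are list medians, the grey band spans the quartiles of all tested genes (-1.05 to 0.92) and the dashed line is their median. The medians of the MICOS, OPA1 processing and mtDNA replication lists lie above the band, while the 10 described genes have a median of 0.307.

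On the side of membrane shape, the genes that process OPA1 and guard the inner membrane were called higher in 10 of 11 cases and lower in 1, whatever the genotype. Beside this, 38.7% of all genes were called higher and 39.1% lower in WT, and 38.5% and 39.2% in CKO. The median of the list was 1.064 in WT cells, and 0.934 for CKO. The prohibitins Phb and Phb2, ring-forming scaffolds of the inner membrane, rose from 57.3 ± 2.18 to 210 ± 3.71 CPM and from 84.3 ± 3.54 to 250 ± 11.8 CPM in WT (log2 changes 1.88 ± 0.069 and 1.57 ± 0.062, adjusted p = 3.82e-15 and 1.00e-14). Stoml2, a related scaffold, rose by 1.85 ± 0.078 (adjusted p = 2.84e-14). In the MICOS complex, which holds cristae junctions, and its partners, 8 of 9 rose and 0 fell in both genotypes (medians 1.230 and 1.316). Immt, the core subunit, rose by 1.23 ± 0.064 in WT cells and 1.32 ± 0.065 in CKO cells, with adjusted p = 8.13e-13 and 3.22e-13. Dnajc11 and Apoo rose by 1.25 ± 0.062 and 2.23 ± 0.139 in WT (adjusted p = 3.91e-13 and 1.38e-11).

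The other fission genes spread widely. Of 11 tested, 6 rose, 2 fell and 3 did not pass in WT cells. For CKO cells 7 were called higher and 2 lower. The shares over all genes were 38.7% higher and 39.1% lower in WT, and 38.5% and 39.2% in CKO. Spire1, an actin nucleator with a mitochondrial form, went from 0.377 ± 0.113 to 26.7 ± 1.83 CPM in WT (log2 change 6.14 ± 0.187, adjusted p = 2.16e-16). Mtfr2, a protein linked to mitochondrial fission, went from 1.27 ± 0.482 to 28.8 ± 3.19 CPM (log2 change 4.47 ± 0.185, adjusted p = 2.12e-14). Mtfr1l, of the same family, fell from 61.4 ± 1.27 to 31.1 ± 2.14 (-0.98 ± 0.082, adjusted p = 1.45e-09). In mitophagy, the removal of mitochondria by autophagy, 3 of 9 tested genes were called higher and 3 lower in WT cells. For CKO cells the counts were 4 and 3. The WT counts were near the shares over all genes. Bnip3, a mitophagy receptor, went from 4.15 ± 0.687 to 140 ± 25.2 CPM in WT (log2 change 5.08 ± 0.166, adjusted p = 1.92e-12), while Pink1, the kinase that marks damaged mitochondria, fell from 53.8 ± 8.67 to 12.6 ± 0.563 (-2.09 ± 0.120, adjusted p = 1.25e-11). Sqstm1, an autophagy adaptor, fell by 1.43 ± 0.085 on the log2 scale (adjusted p = 1.60e-11). Over these 8 lists WT cells had 51 of 79 tested genes higher and 13 lower, and CKO cells 54 higher and 13 lower. These totals are to be read against 38.7% higher and 39.1% lower over all genes in WT, and 38.5% and 39.2% in CKO.

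**Figure D4:**
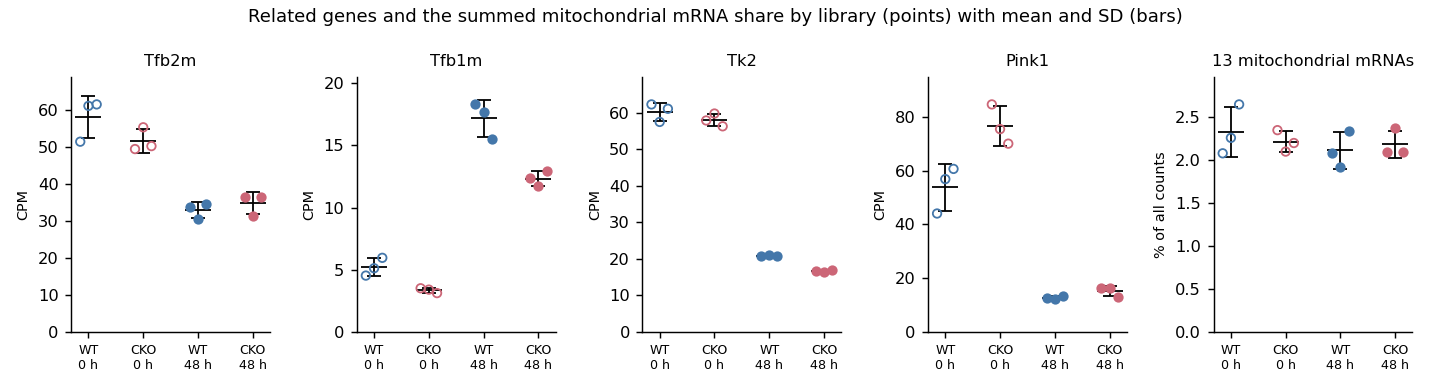
CPM of Tfb2m, Tfb1m, Tk2 and Pink1 and the summed share of the 13 mitochondrial mRNAs in percent of all counts, by library (points) with group mean and SD (bars), on linear axes from 0. Tfb2m and Tfb1m move in opposite directions with time, CKO lies below WT for Tfb1m at both times and above WT for Pink1 at 0 h, and the mitochondrial share overlaps between all 4 groups.

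Between genotypes, 6 of the 79 related genes were called at 0 h, 2 at 48 h and 2 in the interaction, to be read against 7.48%, 4.54% and 1.38% of all genes. With single libraries left out the counts ran from 3 to 9 at 0 h, from 0 to 2 at 48 h and from 0 to 2 in the interaction. The 48 h count was 0 without WT replicate 3, CKO replicate 1 or CKO replicate 3 at 48 h. The interaction count was 0 without CKO replicate 3 at 0 h or at 48 h. The 0 h count was 3 without WT replicate 3 or CKO replicate 3 at 0 h, 9 without WT replicate 1 at 48 h, and 2 when only the 0 h libraries were fitted. Pink1 was higher in CKO at 0 h. It measured 44.0, 56.8 and 60.6 CPM in WT and 84.6, 75.4 and 70.0 in CKO libraries, with no overlap (log2 difference 0.51 ± 0.108, adjusted p = 0.00683), and kept its call in all 20 alternatives. Tfb1m was lower in CKO at both times without overlap, by -0.64 ± 0.161 at 0 h (adjusted p = 0.0186) and -0.48 ± 0.133 at 48 h (adjusted p = 0.0453). The 0 h call was lost without WT replicate 3 (adjusted p = 0.0869) or CKO replicate 3 (0.0811) at 0 h, and with the 0 h libraries alone (0.0940), and the 48 h call without any 1 of the 6 libraries at 48 h (adjusted p = 0.0675 to 0.151). In all, the 48 h call was lost in 12 of 20 alternatives, among them the replicate block (adjusted p = 0.05 after rounding, just above the threshold), median-of-ratios size factors (adjusted p = 0.0506) and library totals (0.0563). The other 3 left out WT replicate 1 of both times (0.0897), or CKO replicate 1 (0.0531) or 3 (0.0504) of the 0 h libraries. Mgme1 was higher in CKO at 0 h (5.98 ± 0.227 and 8.94 ± 1.78 CPM, log2 difference 0.58 ± 0.137, adjusted p = 0.0123), but without CKO replicate 2 at 0 h it was 0.41 (adjusted p = 0.0647). Tk2 at 48 h was 20.8, 21.0 and 20.8 CPM in WT and 16.6, 16.4 and 16.8 in CKO libraries (log2 difference -0.33 ± 0.075, adjusted p = 0.0135); leaving out any of WT replicate 3 or CKO replicates 1, 2 and 3 at 48 h gave adjusted p = 0.0526 to 0.0571, and the 48 h libraries alone 0.0561. The CD8 T-cell markers were also lower in CKO at 48 h, with a summed level of 1560 to 1608 CPM against 1889 to 1993, and their part in the Tfb1m and Tk2 differences was not tested. Summed B-cell and erythroid markers were lower in CKO at 0 h, and their part in the 0 h differences was not tested. Yy1, a transcription factor, was 184 ± 4.93 CPM in WT and 161 ± 7.91 in CKO at 0 h (-0.20 ± 0.058, adjusted p = 0.0394), a call lost in 13 of 20 alternatives (adjusted p up to 0.173 without CKO replicate 1 at 0 h). Samhd1, a hydrolase of deoxynucleotides, and Spire1 were called both at 0 h and in the interaction. The same 0 h libraries enter both comparisons, so these calls are not independent of each other. At 48 h the main edgeR fit called neither between genotypes. There Samhd1 differed by -0.20 ± 0.076 (adjusted p = 0.156) and Spire1 by 0.17 ± 0.112 (adjusted p = 0.480).

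Samhd1 measured 590, 549 and 504 CPM in WT and 647, 697 and 692 in CKO libraries at 0 h. At 48 h WT libraries had 869, 779 and 776 CPM and CKO libraries 673, 789 and 642. CKO lay above WT at 0 h without overlap (log2 difference 0.31 ± 0.077, adjusted p = 0.0169). The 0 h call was lost without WT replicate 2 or 3 or CKO replicate 2 or 3 at 0 h (adjusted p = 0.0555 to 0.0958). Samhd1 rose in WT (0.56 ± 0.077, adjusted p = 1.76e-06) and was not called in CKO (0.05 ± 0.076, adjusted p = 0.573). Spire1 had 5 to 8 counts in WT and 16 to 19 in CKO libraries at 0 h, or 0.377 ± 0.113 and 1.06 ± 0.101 CPM (log2 difference 1.49 ± 0.289, adjusted p = 0.00277). Fitted on the 0 h libraries alone, this difference was not called (adjusted p = 0.0773). In the interaction Samhd1 was at -0.51 ± 0.108 (adjusted p = 0.0187) and Spire1 at -1.32 ± 0.311 (adjusted p = 0.0367), calls lost in 3 and 9 of 20 alternatives, for Samhd1 without WT replicate 3 or CKO replicate 3 at 0 h or CKO replicate 3 at 48 h and for Spire1 with an adjusted p of up to 0.192 without WT replicate 2 at 0 h.

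The summed mRNAs of mitochondrial DNA itself overlapped between all 4 groups. The 13 mitochondrially encoded mRNAs held 2.33 ± 0.291% of all counts in WT and 2.22 ± 0.128% in CKO at 0 h, and 2.11 ± 0.212% and 2.19 ± 0.161% at 48 h (SD, n = 3). A two-sided exact permutation test gave p = 0.400 for time in WT, 0.800 for time in CKO, 0.700 for genotype at 0 h and 0.50 at 48 h (adjusted 0.800 in each of the 4), where the smallest p that 3 against 3 allows is 0.1, so that this test could not pass a threshold of 0.05 and does not show that the share was unchanged. Among the 13 single mRNAs in the edgeR fit, 0 were called higher and 2 lower in WT. These 2 were mt-Co1 (-0.25 ± 0.087, adjusted p = 0.0160) and mt-Atp8 (-0.93 ± 0.413, adjusted p = 0.0459). In CKO 1 was called higher (mt-Nd1, 0.30 ± 0.094, adjusted p = 0.00978). Over all genes 38.7% were called higher and 39.1% lower in WT, and 38.5% and 39.2% in CKO. Neither WT call held throughout: mt-Co1 was lost in 4 of 21 alternatives, among them those without WT replicate 3 at 0 h (adjusted p = 0.103) and without WT replicate 1 or 2 at 48 h (0.133 and 0.128), and mt-Atp8, at 0.421 to 1.49 CPM, in 15 of 20 alternatives. The RNA level does not measure the amount of mitochondrial DNA.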

How the data were processed

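RNA was extracted with TRIzol and sequenced from TruSeq Stranded mRNA libraries, per the labels' protocols. The authors deposited raw counts per gene for the 12 libraries as 1 table. The submitters' processing notes name cutadapt, HISAT2 2.2.1, DESeq2 and the build GRCm39, with no roles; the counting tool, annotation release and strand setting are each not given in the sources used here. Gene identifiers without a symbol held 0.249% of counts.

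From these counts, edgeR 4.0.16 (R 4.3.3) fitted 1 mean per group over all 12 libraries (TMM scaling, filterByExpr, robust quasi-likelihood test, Benjamini-Hochberg adjustment over 15935 genes, threshold 0.05). The common biological coefficient of variation was 0.0999, with 8 residual degrees of freedom. The 5 comparisons were 48 h against 0 h in each genotype, CKO against WT at each time, and the interaction. CPM values are counts divided by each library's total over the tested genes times its TMM factor, and scaled to 1e+06. The TMM factors ran from 0.9736 to 1.025. Library totals over all genes ran from 15900529 to 22427151. The share of mitochondrial mRNAs was compared by exact permutation (SciPy 1.17.1). The script was tested on simulated data.

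The 10 genes and all lists were chosen with earlier results of these data known. Named are the 10 genes, Senp1, per list up to 3 genes with the smallest p in WT and up to 4 called between genotypes or in the interaction, and per gene the 1 gene nearest in pattern. The paralog ratio, overlapping partners on the other strand and promoter patterns were added after values were seen, as was mt-Nd1.

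Alternatives were DESeq2 1.42.0, its size factors, library totals alone, no count filter, a filter of 50 counts in 3 libraries, only the groups compared, the replicate number as a block, and each library left out in turn. Leaving out WT replicate 1 at both times and a block within each genotype were added after seeing the data. Gene positions in the files' build were not used here; lengths and overlaps came from GENCODE M21 (GRCm38) and promoter letters from RefSeq (GRCm38.p6), matched by symbol for all 10 genes.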

Additional observations from a re-analysis of the deposited data

Results flagged for a closer look

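By the interaction term of edgeR's quasi-likelihood fit, 2 of the 79 related genes were called for a difference between the CKO and WT responses. Among all genes 1.38% were called. Without CKO replicate 3 at 0 h or at 48 h, none of the related genes was called. For Samhd1 the difference (CKO log2 change less WT log2 change) was -0.51 ± 0.108 (adjusted p = 0.0187). It was -0.45 without WT replicate 3 at 0 h (adjusted p = 0.0570), -0.50 without CKO replicate 3 at 0 h (0.0587) and -0.47 without CKO replicate 3 at 48 h (0.0548), over an adjusted p range of 1.22e-06 to 0.0587 in 20 alternatives.

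For Spire1 the difference was -1.32 ± 0.311 (adjusted p = 0.0367), with 5 to 8 counts in each WT library at 0 h. The call was lost in 9 of 20 alternatives. The adjusted p was 0.0808 without WT replicate 1 and 0.192 without WT replicate 2 at 0 h, 0.10 and 0.0785 without CKO replicates 1 and 3 at 0 h, 0.0502 and 0.0608 without WT replicates 2 and 3 at 48 h, and 0.0761 without CKO replicate 3 at 48 h. It was 0.0762 without WT replicate 1 of both times and 0.0546 with the replicate block within each genotype (difference -1.32).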

How the results depend on the processing

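Of 1020 values of the 10 genes under the alternatives, 1006 kept their side of the threshold, 4 lost a call, 10 gained one and 0 called values reversed; 41 values that were never called changed sign. The number of the 10 called was 8 or 9 in WT and 8 or 9 in CKO over all alternatives, and 0 in the interaction and between genotypes at 48 h. Between genotypes at 0 h it was 0, and 2 with no count filter (Polg, adjusted p = 0.0459, and Polg2, 0.0137), 1 with DESeq2, 1 with the replicate block, 1 without WT replicate 1 of both times (Polg, 0.0120), and 0 to 1 with single libraries left out (1 without WT replicate 1 at 0 h, CKO replicate 2 at 0 h or WT replicate 1 at 48 h). The cause was not tested. The WT call of Polg was also lost with no count filter (-0.15, adjusted p = 0.0876). Replicate numbers were not taken as pairs. Same-numbered libraries correlated at -0.00362 to 0.162 across genes in their deviations from group means, and 10 of 12 pairs correlated best with their own number. Every pair across the times within a genotype did so (0.0424 to 0.162), and the misses were pairs of WT with CKO. Deviations within a group are not independent, so this is a hint from the data and not the design. Whether the times were paired cannot be told. With the replicate block 9 of the 10 were called in WT and 8 in CKO. With single libraries left out, the difference in the mitochondrial mRNA share, in percentage points, changed sign in 3 comparisons. It ran from -0.344 to -0.0604 for time in WT, from -0.123 to 0.0375 for time in CKO, from -0.240 to 0.0438 for genotype at 0 h and from -0.0235 to 0.187 for genotype at 48 h. Of 2851 values of the related genes named, 2752 stayed on their side, 72 lost a call, 27 gained one and 0 reversed. Of 918 counts over gene lists, 824 stayed within 1.5 times the main count and 94 did not, 21 of them among 378 counts for activation.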

Other observations

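For each of the 10 genes, the tested gene nearest in pattern over the 12 libraries was found by the root mean square difference of centred log2 CPM. Polg2 was nearest to Dyrk2, a protein kinase, at 0.148, where Polg2 itself spread by 1.435 about its mean; Dyrk2 changed by -2.62 in WT and -2.91 in CKO on the log2 scale. Tfb2m was nearest to Mob4 (0.073, with changes of -0.76 and -0.47). Nrf1 was nearest to Dpp3 (0.045), Tfam to Cnbp (0.045), Opa1 to Naa35 (0.053), Mfn1 to Prdm4 (0.040) and Mfn2 to Atxn3 (0.037). Dnm1l was nearest to Ppp6r3 (0.048), Polg to Pabpn1 (0.066) and Fis1 to Ppp2r2d (0.052). The nearest gene was picked from all tested genes, so a small difference is built into the choice.

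The mitochondrial mRNAs, which are cut from shared long transcripts, differed widely in level. Per kb of exon, mt-Co1 had 5039 to 7437 CPM over the 12 libraries and mt-Cytb 2595 to 3466. On the same scale mt-Co2 had 28.1 to 45.8, mt-Co3 14.8 to 24.6, mt-Atp6 12.2 to 24.5, mt-Nd3 1.93 to 7.35, mt-Atp8 2.06 to 7.29 and mt-Nd4l 1.43 to 3.10. These 6 low values and the summed share of the 13 mRNAs rest on the authors' counting, and how it treated reads with near-identical copies in the nuclear genome, or from neighbouring genes that overlap, is not given in the sources used here. The levels of these 6 genes are therefore uncertain.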
